A study of Homo sapiens with 8 samples.

Results

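Integrins and the proteins that tie them to the actin cytoskeleton were followed as 37 genes, chosen by symbol from a list of integrin subunits and focal adhesion proteins, out of 25369 genes in the count table. They fall into 16 integrin subunits and 21 adhesion adaptors. After the filter on low counts 14016 genes were tested, and 34 of the 37 members were among them, 14 integrin subunits and 20 adaptors. ITGA4, ITGA11 and FLNC had 0 to 3 counts in every library and were not tested. Transcripts were measured by RNA sequencing of MDA-MB-231 cells, an established human breast cancer line that lacks hormone receptors and has a mesenchymal appearance, in 8 libraries.

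The modified lines were SUN2KO, a SUN2 knockout line, Kashlid, which has a SUN2 lacking residues 569 to 585, and LBD, which has a SUN2 lacking residues 1 to 139. Each was set against unmodified WT cells, and every group had 2 libraries. By the series design the Kashlid truncation was meant to break the link of SUN2 to Nesprin-2G, and the LBD truncation the link to the lamins inside the nucleus. Whether the truncations were put into knockout or unmodified cells, by what means, and whether any line is 1 clone, is not stated in the labels. SUN2 transcript itself had 474 and 564 counts in SUN2KO, 643 and 603 in Kashlid, 562 and 579 in LBD, against 1408 and 1441 in WT, so all modified lines held less of it than WT. Nor is it stated that the 2 libraries of a line were grown separately, so the p-values reflect the variation between libraries, which could be purely technical.

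Integrins are receptors made of 1 alpha and 1 beta subunit that bind matrix proteins outside the cell. Inside, talin and kindlin bind the beta tail and switch the receptor to its active form, and vinculin, alpha-actinin, filamin and tensin join it to actin. The kinases FAK and SRC and the scaffolds paxillin and p130Cas carry the signal onward. The same actin network reaches the nucleus through nesprins and SUN proteins, which together form the LINC complex.

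Library depth lay between 16570099 and 18814795 counts. Levels are given as CPM, read counts scaled to library size with TMM factors, and levels of different genes are compared only as CPM per kb of exon. The 6 markers that MDA-MB-231 should express, such as VIM and CD44, summed to 1814 to 1837 CPM in SUN2KO, 1673 to 1780 in Kashlid, 1989 to 2010 in LBD and 1918 to 1947 in WT. Single markers among those 6 did change. CAV1 was lower than WT in every modified line, at log2 fold changes of -0.56, -0.88 and -0.68 for SUN2KO, Kashlid and LBD. VIM was lower in each as well (-0.43, -0.43 and -0.26). ANXA1 was also lower in Kashlid (-0.13), while CD44 (0.31) and MSN (0.16) were higher in LBD. The 4 markers that MDA-MB-231 should lack or hold at a low level (ESR1, PGR, GATA3 and CDH1) summed to at most 2.90 CPM in any library. Of these, CDH1 was higher in Kashlid (1.31, edgeR adjusted p = 0.0263), at a mean of 1.015 CPM over all libraries. The study also grew HEK293T cells, and 8 markers of HEK293-type cells summed to 25.7 and 29.4 CPM in SUN2KO, 24.1 and 28.6 in Kashlid, 27.9 and 27.5 in LBD and 26.0 and 26.8 in WT, with SALL1 at 0 counts in every library. Of the 4 that were tested, 2 were higher and 1 lower than WT in SUN2KO, 2 higher and 2 lower in Kashlid, and 2 higher and 1 lower in LBD. LIN28B had 6 to 17 counts in each modified library and 0 in both WT libraries, and the part of such transcripts in the results was not tested. In bulk RNA a lower level in every cell cannot be told apart from a loss in some of the cells.

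The integrin alpha subunits changed in opposite directions. ITGA1 and ITGA3 were lower than WT in all 3 modified lines, ITGA2 was lower in SUN2KO and higher in both truncation lines, and ITGA5 was higher in both truncation lines and did not pass in SUN2KO. ITGA6 did not pass in any comparison with WT. Of the 14 tested integrin subunits, 0 were higher and 7 lower in SUN2KO, 2 were higher and 5 lower in Kashlid, and 4 were higher and 5 lower in LBD. That is 50%, 50% and 64.3% of the tested subunits called. Over all 14016 genes, the shares called were 36.7% for SUN2KO, 44.5% for Kashlid and 40% for LBD (edgeR's quasi-likelihood test, Benjamini-Hochberg adjusted p under 0.05). The subunit share in Kashlid was thus near that of all genes. The 0 higher in SUN2KO was also 0 at an unadjusted p under 0.05 and 0 by DESeq2. By direction, 17.5% of all genes were higher and 19.1% lower in SUN2KO, 21.7% and 22.7% in Kashlid, 19% and 21% in LBD. That balance turned with library size alone as scaling, which gave 3526 genes higher and 2780 lower in Kashlid and 3059 higher and 2589 lower in LBD, against 3047 and 3185 in Kashlid and 2670 and 2941 in LBD with TMM. The 3 comparisons share the WT libraries, so their results are not independent of each other.

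ITGA1 and ITGA2 encode the alpha subunits of the collagen-binding integrins alpha1beta1 and alpha2beta1, and they lie next to each other on chromosome 5 (hg19, 52084136 to 52249485 and 52285156 to 52390609). ITGA1 had 165.7 and 150.4 CPM in SUN2KO, 96.8 and 93.0 in Kashlid, 121.4 and 119.7 in LBD, against 243.2 and 257.5 CPM in WT. ITGA2 had 111.4 and 100.7 CPM in SUN2KO, 254.8 and 232.5 in Kashlid, 274.9 and 336.5 in LBD, against 141.7 and 157.8 CPM in WT. For neither gene did any modified library overlap the WT range, but ITGA2 lay below WT in SUN2KO and above WT in both truncation lines. Against WT, the log2 fold change of ITGA1 was -0.66 ± 0.06 (SE) for SUN2KO, -1.40 ± 0.06 for Kashlid and -1.05 ± 0.06 for LBD (adjusted p = 1.43e-08, 1.7e-13 and 1.4e-11). Those of ITGA2 were -0.50 ± 0.08, 0.70 ± 0.08 and 1.03 ± 0.08 in the same order (adjusted p = 5.31e-05, 3.4e-07 and 1.72e-09). As a ratio of CPM per kb, ITGA2 over ITGA1 was 0.92 ± 0.003 in SUN2KO, 3.51 ± 0.13 in Kashlid and 3.47 ± 0.53 in LBD, against 0.82 ± 0.03 in WT (SD, n = 2). The gene PELO (hg19, 52083774 to 52098452) overlaps the start of ITGA1 and had 785 to 1154 counts in all libraries. Without a stated strand setting, reads of the overlapping stretch cannot be assigned with certainty.

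**Figure D1:**
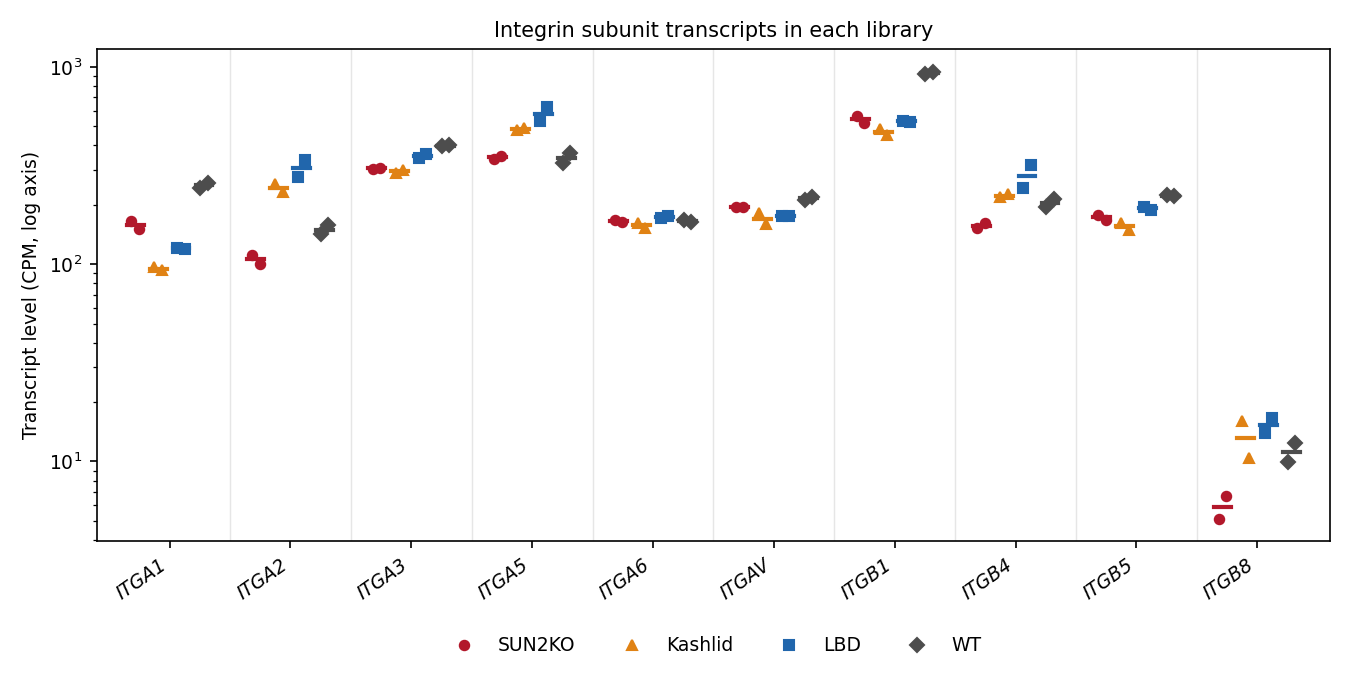
Integrin subunit levels in each library, as CPM on a log axis, for SUN2KO, Kashlid, LBD and WT. Points are libraries and short lines are means of 2 libraries. ITGA2 lies at 101 to 111 CPM in SUN2KO, 233 to 337 in the truncation lines and 142 to 158 in WT, and ITGB1 is at 452 to 561 CPM in the modified libraries and at 917 and 945 CPM in WT.

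The promoters of 4 subunits are shown for their patterns. ITGA1 and ITGA2 are neighbours that changed in opposite directions in the truncation lines, ITGA5 was higher in both truncation lines, and ITGB1 was lower in all modified lines. Each is the RefSeq sequence from 250 bases before to 50 bases after the gene's start on GRCh38.p14, written 5′ to 3′ on the gene's strand. The windows are chr5:52787666-52787965 (plus strand) for ITGA1, chr5:52989102-52989401 (plus strand) for ITGA2, chr12:54419217-54419516 (minus strand) for ITGA5 and chr10:32958181-32958480 (minus strand) for ITGB1. Capitals mark matches on either strand to the AP-1 motif TGANTCA, the Sp1 motif GGGCGG, the TEAD motif GGAATG or the CArG box of SRF.
ITGA1: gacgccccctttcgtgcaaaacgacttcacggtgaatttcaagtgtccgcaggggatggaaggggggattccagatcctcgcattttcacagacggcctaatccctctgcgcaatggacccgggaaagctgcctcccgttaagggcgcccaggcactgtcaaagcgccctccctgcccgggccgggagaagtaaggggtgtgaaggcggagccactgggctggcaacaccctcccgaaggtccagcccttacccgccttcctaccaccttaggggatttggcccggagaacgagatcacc
ITGA2: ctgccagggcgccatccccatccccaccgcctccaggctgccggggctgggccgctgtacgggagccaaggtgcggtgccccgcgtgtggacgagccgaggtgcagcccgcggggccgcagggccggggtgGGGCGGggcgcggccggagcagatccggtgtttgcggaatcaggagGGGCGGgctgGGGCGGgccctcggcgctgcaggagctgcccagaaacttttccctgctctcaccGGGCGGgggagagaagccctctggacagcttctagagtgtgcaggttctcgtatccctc
ITGA5: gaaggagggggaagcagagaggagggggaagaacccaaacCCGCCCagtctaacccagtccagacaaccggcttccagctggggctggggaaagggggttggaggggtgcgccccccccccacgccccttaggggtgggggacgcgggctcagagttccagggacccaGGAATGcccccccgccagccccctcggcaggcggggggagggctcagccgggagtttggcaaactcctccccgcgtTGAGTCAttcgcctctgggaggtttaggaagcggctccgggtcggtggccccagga
ITGB1: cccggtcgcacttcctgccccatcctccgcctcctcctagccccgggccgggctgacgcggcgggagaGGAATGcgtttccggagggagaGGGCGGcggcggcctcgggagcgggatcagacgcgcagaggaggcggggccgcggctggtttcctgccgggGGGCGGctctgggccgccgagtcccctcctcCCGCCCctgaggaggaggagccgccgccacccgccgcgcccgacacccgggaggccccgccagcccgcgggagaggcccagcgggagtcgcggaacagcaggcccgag
The ITGA1 window held 0 of these motifs, at 61.7% G+C. Of 7 GENCODE transcripts of ITGA1, 1 began in this window, and the RefSeq start may differ from the hg19 start given above. The ITGA2 window held 4 matches to the Sp1 motif at 72.7% G+C, and the ITGB1 window 3 matches to the Sp1 and 1 to the TEAD motif at 78.3% G+C. The ITGA5 window held 1 match each to the AP-1, Sp1 and TEAD motifs at 69.3% G+C. RefSeq gave a promoter for 29 of the 37 members. Among those 29, the AP-1 motif was in 3, the Sp1 motif in 19, the TEAD motif in 5 and the CArG box in 2. Among 27305 promoters of the same length, 7.76% held the AP-1 motif, 44.6% the Sp1 motif, 14% the TEAD motif and 1.29% the CArG box. A match is a run of letters and shows no binding, and no match says only that the letters are not in this window.

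ITGA5, the alpha subunit of the fibronectin receptor, had 342.5 and 354.8 CPM in SUN2KO, 476.3 and 491.6 in Kashlid, 528.1 and 627.1 in LBD, against 327.1 and 365.4 CPM in WT. The SUN2KO libraries lay within the WT range and all truncation libraries lay above it. Its log2 fold change against WT was 0.01 ± 0.06 in SUN2KO (95% interval -0.12 to 0.14, adjusted p = 0.924), 0.48 ± 0.06 in Kashlid (adjusted p = 3.12e-06) and 0.74 ± 0.06 in LBD (adjusted p = 1.12e-08). ITGAV, the alpha subunit that pairs with several beta subunits to bind vitronectin and other RGD-containing ligands, had 195.4 and 195.3 CPM in SUN2KO, 180.7 and 159.9 in Kashlid, 175.5 and 175.7 in LBD, against 212.1 and 218.4 in WT. It fell in Kashlid (-0.34 ± 0.06, adjusted p = 5.16e-05) and LBD (-0.29 ± 0.06, adjusted p = 0.000266), while in SUN2KO the value was -0.14 ± 0.06 (adjusted p = 0.0539). The 7 tested genes within 2.5 Mb of ITGAV had median log2 fold changes of -0.16 in SUN2KO, -0.12 in Kashlid and -0.38 in LBD. After subtraction of that median ITGAV stood at 0.08 in LBD (adjusted p = 0.294), so its lower level there was no larger than that of its neighbours.

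The laminin-binding subunits behaved differently from each other. ITGA3, which pairs with beta1, had 304.8 and 305.9 CPM in SUN2KO, 290.6 and 301.1 in Kashlid, 345.8 and 361.4 in LBD, against 396.3 and 400.9 CPM in WT. It fell in all 3 lines, with log2 fold changes of -0.38 ± 0.05, -0.43 ± 0.05 and -0.17 ± 0.05 for SUN2KO, Kashlid and LBD (adjusted p = 1.24e-06, 1.8e-07 and 0.00436), but the LBD call was lost without LBD replicate 1 (-0.14, adjusted p = 0.0709). ITGA6, the other laminin receptor subunit, lay between 153 and 175 CPM in all 8 libraries and had log2 values of 0.00, -0.07 and 0.07 in SUN2KO, Kashlid and LBD against WT, none of which passed. ITGA7 had 12 to 18 counts and ITGA10 12 to 22 counts per library, and neither passed in any comparison.

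Beta subunits were lower in SUN2KO in 4 of 6 cases, and in the truncation lines they divided. ITGB1 and ITGB5 were lower than WT in all 3 lines, and ITGB4 and ITGB8 were lower in SUN2KO and higher in LBD. ITGB1, the common partner of most alpha subunits in these cells, had 560.5 and 520.8 CPM in SUN2KO, 483.4 and 452.0 in Kashlid, 534.0 and 524.4 in LBD, against 917.1 and 945.3 CPM in WT. Every modified library was at 48.5% to 60.2% of the WT mean, with SUN2KO and LBD overlapping and both Kashlid libraries below them. The log2 fold changes were -0.78 ± 0.05 in SUN2KO, -0.99 ± 0.05 in Kashlid and -0.82 ± 0.05 in LBD (adjusted p = 8.03e-11, 9.88e-13 and 2.57e-11).

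The region around ITGB1 on chromosome 10 (hg19, 33189246 to 33224486) moved with it. The 12 tested genes within 2.5 Mb had a median log2 fold change of -0.63 in SUN2KO, -0.59 in Kashlid and -0.60 in LBD, against all-gene medians of 0.003, 0.005 and 0.003. Relative to these neighbours ITGB1 stood at -0.15 in SUN2KO (adjusted p = 0.0173), -0.40 in Kashlid (adjusted p = 7.23e-07) and -0.22 in LBD (adjusted p = 0.00105). The lower ITGB1 level thus coincided with lower levels across its region in every modified line, and the part of the region in it was not tested.

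ITGB5, the vitronectin receptor subunit, had 177.7 and 167.2 CPM in SUN2KO, 162.5 and 149.6 in Kashlid, 195.4 and 188.6 in LBD, against 223.9 and 221.2 CPM in WT. It fell in each line (-0.37 ± 0.05, -0.51 ± 0.05 and -0.21 ± 0.05 for SUN2KO, Kashlid and LBD, adjusted p = 1.88e-05, 2.02e-07 and 0.00346). ITGB4, the beta4 subunit of the hemidesmosomal laminin receptor, had 151.8 and 161.0 CPM in SUN2KO, 217.6 and 226.2 in Kashlid, 242.6 and 316.3 in LBD, against 195.3 and 212.6 CPM in WT. It fell in SUN2KO (-0.38 ± 0.08, adjusted p = 0.000897), was at 0.12 ± 0.08 in Kashlid (adjusted p = 0.237) and rose in LBD (0.45 ± 0.08, adjusted p = 0.000122). Its 79 neighbours within 2.5 Mb had medians of 0.27, 0.29 and 0.31 in SUN2KO, Kashlid and LBD, and relative to them the SUN2KO value was -0.65 and the LBD value 0.14 (adjusted p = 0.182 with windows of at least 15 genes). The 2 LBD libraries differed more for ITGB4 than those of any other group, and the authors' deposited DESeq2 result did not call it in LBD (adjusted p = 0.075).

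ITGB8, whose product with alphaV binds latent TGF-beta, was a low transcript with 5.14 and 6.66 CPM in SUN2KO, 16.02 and 10.4 in Kashlid, 14.0 and 16.6 in LBD, against 9.99 and 12.4 CPM in WT. It fell to 52.6% of WT in SUN2KO (-0.93 ± 0.20, adjusted p = 0.000821) and passed narrowly in LBD (0.45 ± 0.18, adjusted p = 0.048). The SUN2KO libraries were the lowest, and the Kashlid libraries overlapped the WT ones. The LBD call was lost in DESeq2 (adjusted p = 0.122), without LBD replicate 2 (0.32, adjusted p = 0.289) and without WT replicate 1 (0.30, adjusted p = 0.325). Its 10 neighbours had a median of -0.49 in SUN2KO, and relative to them ITGB8 stood at -0.44 there (adjusted p = 0.108). ITGB2, the leukocyte beta subunit, lay between 10.4 and 14.1 CPM and did not pass, and ITGB3 had 4 to 19 counts. Relative to its neighbours ITGB2 did pass, as higher in Kashlid (0.37) and LBD (0.47).

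**Figure D2:**
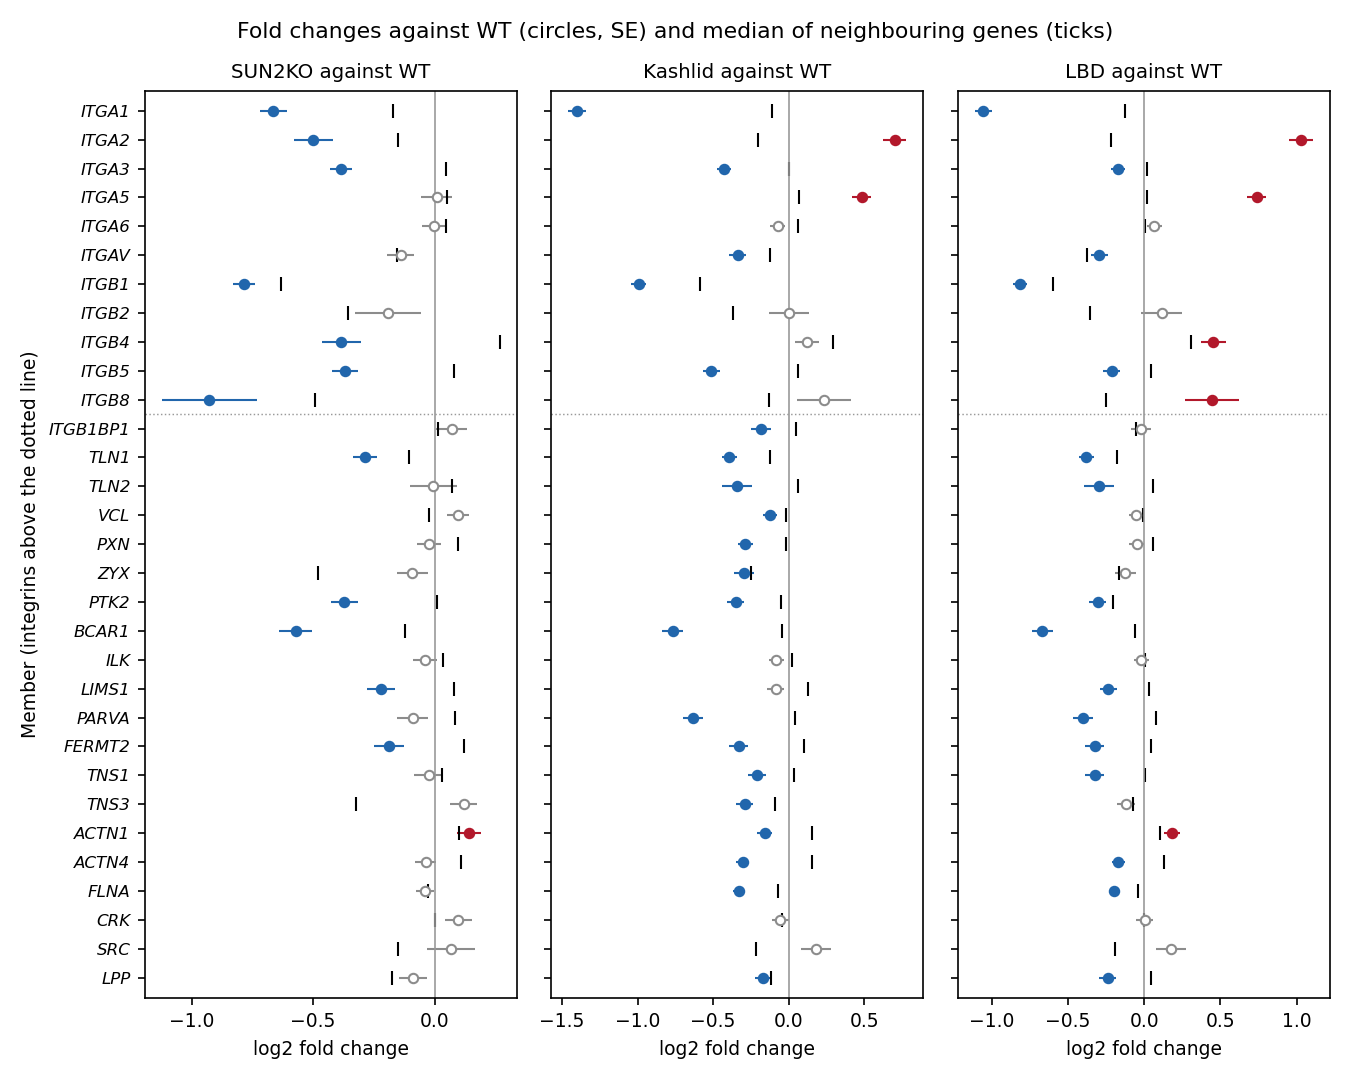
Log2 fold changes of the members against WT in SUN2KO, Kashlid and LBD, with bars of 1 SE. Filled points passed at adjusted p under 0.05 (red higher, blue lower), open points did not, and ITGA7, ITGA10 and ITGB3 are left out because of their low counts. ITGA1 and ITGB1 lie left of zero in each panel, and ITGA2 lies left in SUN2KO and right in Kashlid and LBD.

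The make-up of the integrin transcripts differed between the lines. Per kb of exon, the summed alpha transcripts were 224.8 ± 0.18 CPM per kb in SUN2KO, 260.1 ± 1.23 in Kashlid and 306.8 ± 23.8 in LBD, against 260.3 ± 9.25 in WT, and the summed beta transcripts 206.0 ± 7.69, 195.5 ± 7.15 and 229.3 ± 6.40, against 325.5 ± 6.50 (SD, n = 2). ITGB1 over all alpha transcripts was thus 0.61 ± 0.03 in SUN2KO, 0.46 ± 0.02 in Kashlid and 0.44 ± 0.04 in LBD, against 0.91 ± 0.01 in WT. No modified library reached the WT range of that ratio. Subunits of RGD-binding receptors (ITGA5 and ITGAV) made up 47.0% ± 0.90 of the alpha transcripts in SUN2KO, 51.0% ± 0.39 in Kashlid and 50.3% ± 1.25 in LBD, against 41.4% ± 1.11 in WT. Laminin-binding subunits made up 40.4% ± 0.07 in SUN2KO, 33.7% ± 0.39 in Kashlid and 33.4% ± 1.75 in LBD, against 42.3% ± 1.43 in WT. For collagen-binding subunits the share was 12.6% ± 0.83 in SUN2KO, 15.4% ± 0.79 in Kashlid and 16.4% ± 0.50 in LBD, against 16.3% ± 0.32 in WT. In SUN2KO both of its main parts were below WT, ITGA1 at 6.54% ± 0.44 and ITGA2 at 6.0% ± 0.42. In the truncation lines these parts exchanged. ITGA1 was 3.39% ± 0.08 of the alpha transcripts in Kashlid and 3.67% ± 0.32 in LBD, against 8.94% ± 0.04 in WT, and ITGA2 was 11.9% ± 0.71 in Kashlid and 12.6% ± 0.83 in LBD, against 7.31% ± 0.30 in WT. These ratios and shares are given as descriptions, and no test was run on them.

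**Figure D3:**
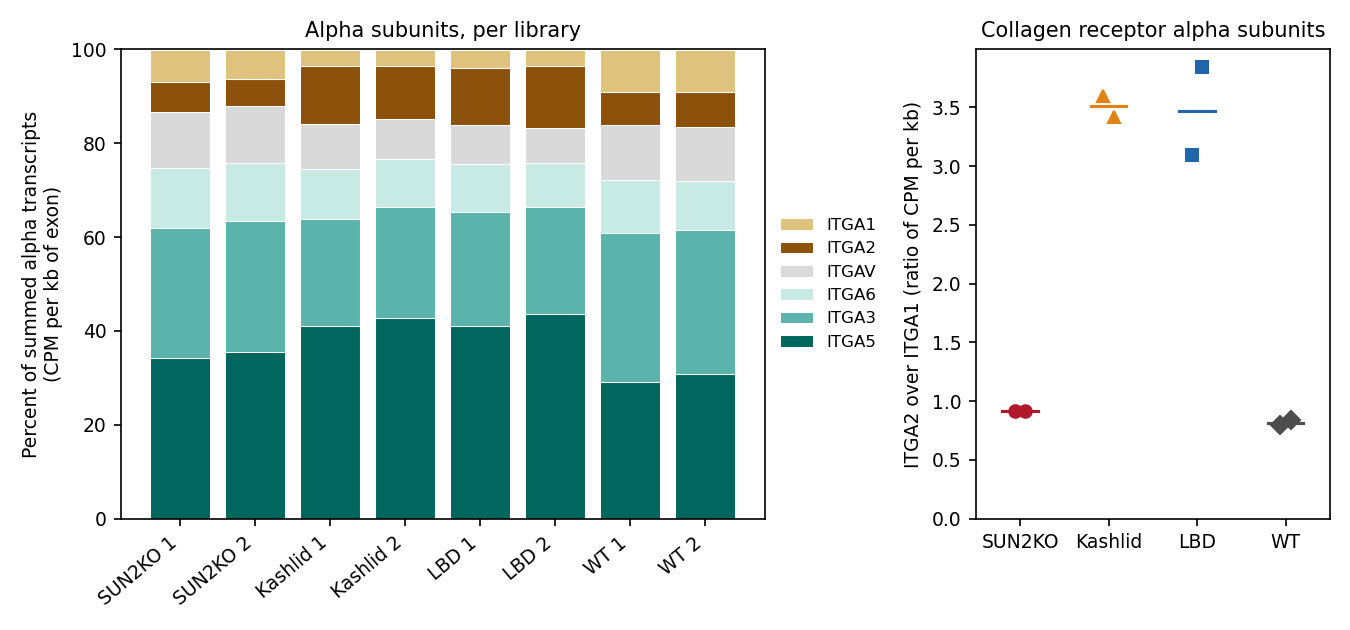
Share of each alpha subunit in the summed alpha transcripts (CPM per kb of exon), as stacked bars for each library of SUN2KO, Kashlid, LBD and WT. A further panel shows the ratio of ITGA2 over ITGA1. As a mean of 2 libraries, ITGA5 holds 34.9% in SUN2KO, 41.9% in Kashlid and 42.3% in LBD, against 29.9% in WT, and ITGA3 27.8%, 23.3% and 23.6%, against 31.3%.

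Among the 20 tested adaptors the changes were smaller and, in the truncation lines, nearly all downward. In SUN2KO 1 was higher and 5 lower, in Kashlid 0 were higher and 16 lower, and in LBD 1 was higher and 11 lower. The shares called were 30% in SUN2KO, below the 36.7% of all genes, 80% in Kashlid, beside 44.5% of all genes, and 60% in LBD, beside 40%. For the 0 higher in Kashlid, the count was also 0 at an unadjusted p under 0.05 and 0 by DESeq2, and in SUN2KO leaving out SUN2KO replicate 2 left 3 adaptors called. Relative to neighbouring genes, however, 1 adaptor was higher (SRC, 0.40) and 14 lower in Kashlid. Library size alone as scaling gave 0 higher and 13 lower there. The median log2 fold change of the adaptors was -0.04 in SUN2KO, -0.29 in Kashlid and -0.18 in LBD, beside 0.003, 0.005 and 0.003 for all tested genes. TLN1, PTK2, BCAR1 and FERMT2 were lower than WT in all 3 lines, as were ITGA1, ITGA3, ITGB1 and ITGB5 among the subunits, and 12.8% of all tested genes were lower in all 3.

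Of proteins that activate integrins, TLN1, the main talin, had 252.0 and 259.2 CPM in SUN2KO, 228.2 and 246.2 in Kashlid, 237.5 and 241.1 in LBD, against 311.0 and 311.9 CPM in WT. It fell in each line (-0.29 ± 0.05, -0.39 ± 0.05 and -0.38 ± 0.05 for SUN2KO, Kashlid and LBD, adjusted p = 0.00011, 1.72e-06 and 3.28e-06). Relative to its 63 neighbours within 2.5 Mb it stood at -0.18, -0.27 and -0.20, and still passed in each. FERMT2, which encodes kindlin-2, had 151.8 and 142.7 CPM in SUN2KO, 141.2 and 125.6 in Kashlid, 139.3 and 128.7 in LBD, against 171.9 and 163.7 CPM in WT. All its modified libraries lay below the WT range, with log2 values of -0.19 ± 0.06, -0.33 ± 0.06 and -0.32 ± 0.06 (adjusted p = 0.0216, 0.00021 and 0.0003), and relative to its neighbours the SUN2KO value was -0.31. Its SUN2KO call was lost without SUN2KO replicate 2 (-0.14, adjusted p = 0.207) and without WT replicate 1 (-0.15, adjusted p = 0.165).

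TLN2, the second talin, was a lower transcript at 29.2 and 27.6 CPM in SUN2KO, 23.0 and 21.9 in Kashlid, 24.9 and 21.5 in LBD, against 27.6 and 29.4 in WT. It passed in Kashlid (-0.34 ± 0.10, adjusted p = 0.00725) and LBD (-0.30 ± 0.10, adjusted p = 0.0208, but 0.0763 in DESeq2). Without WT replicate 2 the adjusted p was 0.0712 for Kashlid and 0.145 for LBD, and without LBD replicate 2 it was 0.228 for LBD. ITGB1BP1, whose product ICAP-1 binds the beta1 tail and restrains activation, had 92.5 and 88.4 CPM in SUN2KO, 73.0 and 78.9 in Kashlid, 82.4 and 87.5 in LBD, against 84.4 and 87.9 in WT. It was lower in Kashlid alone by the test (-0.18 ± 0.06, adjusted p = 0.0245), a call lost in DESeq2 (0.0576), with library size alone as scaling (0.0694), without Kashlid replicate 1 (0.183), without WT replicate 1 (0.0512) and without WT replicate 2 (0.162).

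The ILK, PINCH and parvin complex couples the beta tail to actin. Its PARVA transcript (alpha-parvin) had 90.7 and 88.3 CPM in SUN2KO, 58.7 and 64.2 in Kashlid, 74.9 and 69.6 in LBD, against 95.3 and 95.3 CPM in WT. The truncation lines lay well below both WT and SUN2KO. PARVA fell to 64.5% of WT in Kashlid (-0.63 ± 0.06, adjusted p = 1.14e-07) and 75.8% in LBD (-0.40 ± 0.06, adjusted p = 4.11e-05), and was at -0.09 ± 0.06 in SUN2KO (adjusted p = 0.279). ILK, the scaffold of the complex, lay between 145 and 154 CPM in all libraries, with no value beyond -0.08 on the log2 scale and no call. LIMS1, which encodes PINCH1, passed in SUN2KO (-0.22 ± 0.06, adjusted p = 0.00466) and LBD (-0.23 ± 0.06, adjusted p = 0.00282) and was at -0.09 ± 0.06 in Kashlid. Without SUN2KO replicate 2 or WT replicate 2 its adjusted p in SUN2KO was 0.0762 and 0.0749, and without LBD replicate 2 or WT replicate 2 it was 0.0579 and 0.0588 in LBD. Near-identical LIMS genes may share reads with it, so its values are uncertain.

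Actin-linking proteins were lower in Kashlid without exception among the 6 tested (VCL, TNS1, TNS3, ACTN1, ACTN4 and FLNA). FLNA, the filamin that crosslinks actin and binds beta tails, had 2262 and 2162 CPM in SUN2KO, 1783 and 1834 in Kashlid, 1967 and 2006 in LBD, against 2304 and 2247 CPM in WT. It fell in Kashlid (-0.33 ± 0.04, adjusted p = 3.38e-07) and LBD (-0.20 ± 0.04, adjusted p = 0.000216), and was at -0.04 ± 0.04 in SUN2KO. ACTN4, an alpha-actinin, had 659.5 and 661.4 CPM in SUN2KO, 534.6 and 563.0 in Kashlid, 594.0 and 611.1 in LBD, against 686.4 and 668.7 in WT, with calls in Kashlid (-0.30 ± 0.04, adjusted p = 6.67e-06) and LBD (-0.17 ± 0.04, adjusted p = 0.00308). In both genes the truncation libraries lay below every WT library. Relative to its 81 neighbours ACTN4 stood at -0.46 in Kashlid and -0.30 in LBD.

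ACTN1, the other alpha-actinin, went in both directions, with 364.5 and 355.6 CPM in SUN2KO, 277.4 and 307.2 in Kashlid, 366.7 and 374.7 in LBD, against 331.6 and 321.3 CPM in WT. Its log2 values of 0.14 ± 0.05, -0.16 ± 0.05 and 0.18 ± 0.05 all passed (adjusted p = 0.0317, 0.014 and 0.00606). The SUN2KO call was lost in DESeq2 (0.0534) and without any 1 of the SUN2KO or WT libraries (0.0732 to 0.212). The Kashlid call was lost without Kashlid replicate 1 (0.202) or WT replicate 1 (0.116), and the LBD call without WT replicate 2 (0.0663). Relative to its 28 neighbours ACTN1 stood at 0.04 in SUN2KO and 0.08 in LBD, with neither call kept, and at -0.32 in Kashlid. ACTN4 over ACTN1 per kb was 1.54 ± 0.03 in SUN2KO, 1.58 ± 0.06 in Kashlid and 1.36 ± 0.01 in LBD, against 1.74 ± 0.01 in WT.

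The tensins bind beta tails in fibrillar adhesions. TNS1 had 93.8 and 90.1 CPM in SUN2KO, 77.9 and 83.8 in Kashlid, 75.1 and 74.3 in LBD, against 93.4 and 93.7 CPM in WT, and passed in Kashlid (-0.21 ± 0.06, adjusted p = 0.00734, but 0.0759 without Kashlid replicate 1) and LBD (-0.32 ± 0.06, adjusted p = 0.000228). TNS3 had 130.4 and 130.9 CPM in SUN2KO, 100.4 and 96.3 in Kashlid, 113.4 and 108.0 in LBD, against 117.7 and 122.8 CPM in WT, and passed only in Kashlid among the comparisons with WT (-0.29 ± 0.06, adjusted p = 0.000295). VCL, vinculin, had 452.8 and 437.1 CPM in SUN2KO, 393.1 and 370.1 in Kashlid, 401.1 and 400.8 in LBD, against 423.0 and 409.8 CPM in WT. Its Kashlid value of -0.13 ± 0.05 was close to the threshold (adjusted p = 0.0298), and the adjusted p was 0.215 without Kashlid replicate 2, 0.198 without WT replicate 1 and 0.0548 without WT replicate 2. It was also lost with library size alone as scaling (0.11), relative to its neighbours (0.0703) and in a fit of Kashlid and WT alone (0.0624). SUN2KO was the highest group for both TNS3 and VCL, at values against WT (0.12 and 0.10) that did not pass.

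**Figure D4:**
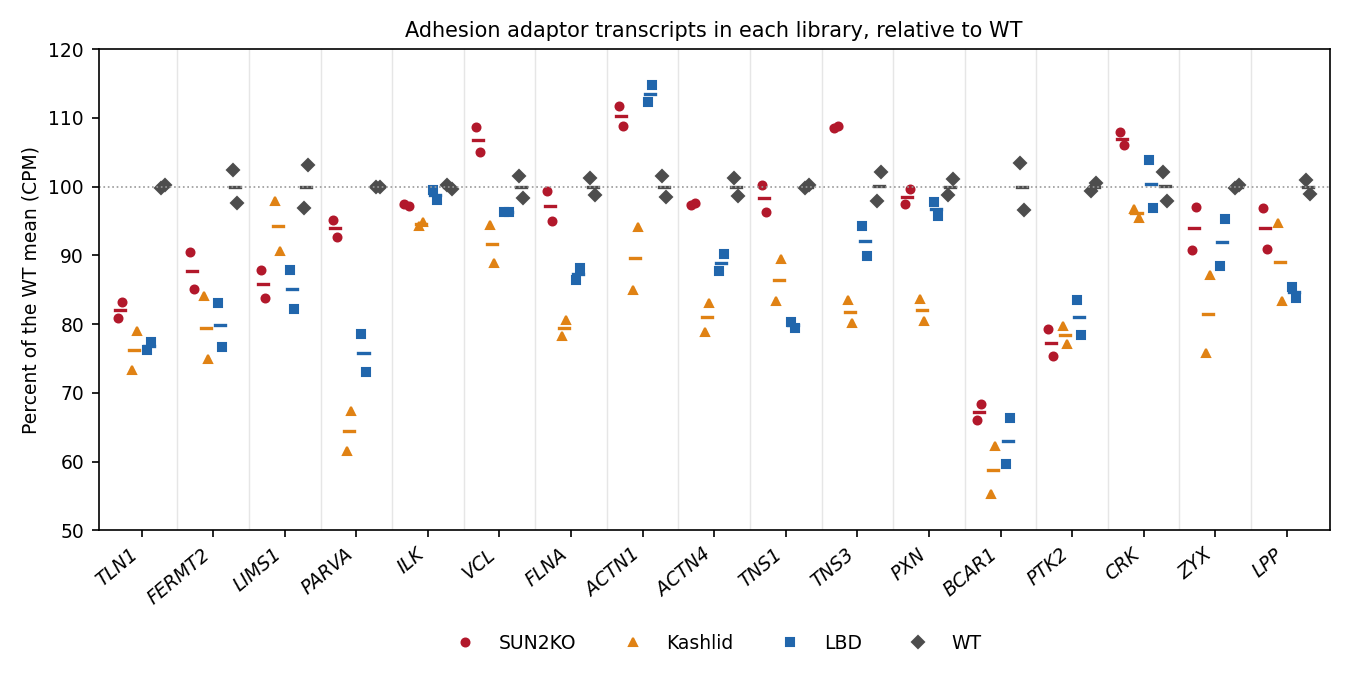
Adaptor transcripts in each library as percent of the WT mean, for SUN2KO, Kashlid, LBD and WT; the axis runs from 50% to 120%. Points are libraries and short lines are means of 2. BCAR1 lies at 55.3% to 68.4% of WT in the modified libraries, PARVA at 61.6% and 67.3% in Kashlid, and ILK at 94.3% to 99.5% in the modified libraries.

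Of the signalling adaptors, BCAR1, the scaffold p130Cas that is phosphorylated when stretched, had the largest decrease. It had 79.7 and 82.5 CPM in SUN2KO, 66.7 and 75.1 in Kashlid, 71.8 and 79.9 in LBD, against 124.7 and 116.5 CPM in WT. The modified lines lay together and below WT, with log2 fold changes of -0.57 ± 0.07 in SUN2KO, -0.77 ± 0.07 in Kashlid and -0.67 ± 0.07 in LBD (adjusted p = 1.38e-06, 1.91e-08 and 1.59e-07). PTK2, which encodes focal adhesion kinase, had 105.6 and 100.5 CPM in SUN2KO, 106.2 and 102.8 in Kashlid, 111.3 and 104.6 in LBD, against 132.5 and 134.0 CPM in WT. Its log2 values were -0.37 ± 0.06, -0.35 ± 0.06 and -0.30 ± 0.06 (adjusted p = 2.98e-05, 4.04e-05 and 0.000224), and its 18 neighbours in LBD had a median of -0.20, relative to which the LBD value was -0.10 (adjusted p = 0.179).

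PXN, paxillin, had 214.6 and 219.2 CPM in SUN2KO, 184.0 and 177.0 in Kashlid, 215.2 and 210.6 in LBD, against 217.6 and 222.6 CPM in WT, and was lower in Kashlid (-0.29 ± 0.05, adjusted p = 8.03e-05). The antisense gene PXN-AS1 overlaps it with 31 to 49 counts. CRK, an adaptor that docks on p130Cas, lay between 119 and 134 CPM and SRC between 21.9 and 26.5 CPM, and neither passed against WT. Relative to its neighbours, though, SRC passed as higher in Kashlid (0.40) and LBD (0.37). Of the LIM proteins of stress fibres, ZYX (zyxin) had 112.0 and 119.6 CPM in SUN2KO, 93.4 and 107.5 in Kashlid, 109.1 and 117.5 in LBD, against 123.1 and 123.6 in WT. It passed in Kashlid (-0.30 ± 0.07, adjusted p = 0.00104), where its 21 neighbours had a median of -0.25 and the value relative to them was -0.05 (adjusted p = 0.623).

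LPP, a relative of zyxin, had 200.6 and 188.4 CPM in SUN2KO, 196.1 and 172.7 in Kashlid, 177.0 and 173.7 in LBD, against 209.2 and 204.9 CPM in WT. It was lower in LBD (-0.24 ± 0.06, adjusted p = 0.0025) and narrowly in Kashlid (-0.17 ± 0.06, adjusted p = 0.0243). The Kashlid call was lost without Kashlid replicate 2 (0.324), WT replicate 1 (0.129) or WT replicate 2 (0.0665), with library size alone (0.0745), in a fit of Kashlid and WT alone (0.0532), and relative to its neighbours (-0.05, adjusted p = 0.541). The authors' deposited tables gave an adjusted p under 0.05 to 14 members in SUN2KO, 17 in Kashlid and 18 in LBD, of which 13, 17 and 18 were called here. In all, 13, 23 and 21 members were called here. That is 38.2%, 67.6% and 61.8% of the members tested, beside 36.7%, 44.5% and 40% of all genes. The share in SUN2KO was thus near that of all genes. Members called here in Kashlid that the authors' DESeq2 tables did not call were all adaptors. They were ITGB1BP1 (0.144), TLN2 (0.071), VCL (0.12), TNS1 (0.0683), ACTN1 (0.0699) and LPP (0.0993). In LBD they were ITGB4 (0.075), ITGB8 (0.101) and TLN2 (0.135).

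Comparisons between the modified lines ask whether the truncations differed from the knockout and from each other. Against SUN2KO, Kashlid had 4 integrin subunits higher and 3 lower of 14, and 0 adaptors higher and 11 lower of 20, where 18% of all genes were called (8.92% higher and 9.13% lower). With library size alone, 1574 genes were higher and 996 lower, against 1250 and 1279 with TMM, and 1 adaptor was higher and 9 lower. For the adaptors higher in Kashlid, 1 had an unadjusted p under 0.05 and DESeq2 called 0, and leaving out SUN2KO replicate 1 left 7 adaptors called. ITGA2 (1.20 ± 0.08), ITGB8 (1.16 ± 0.19), ITGB4 (0.50 ± 0.08) and ITGA5 (0.47 ± 0.06) were higher in Kashlid (adjusted p = 7.04e-10, 0.000178, 0.000139 and 1.66e-05). ITGA1 was lower (-0.74 ± 0.06, adjusted p = 1.23e-08), and so were ITGB1 (-0.21 ± 0.05, adjusted p = 0.003) and ITGAV (-0.20 ± 0.06, adjusted p = 0.017). The ITGB1 call was lost without SUN2KO replicate 1 (-0.16, adjusted p = 0.091), and the ITGAV call without Kashlid replicate 2 (0.196), SUN2KO replicate 1 (0.105) or SUN2KO replicate 2 (0.0935). The 7 neighbours of ITGAV had a median of -0.17 in Kashlid against SUN2KO, and relative to them ITGAV stood at -0.03 (adjusted p = 0.785), so its lower level was close to that of its neighbours.

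Of the adaptors, PARVA (-0.54 ± 0.06), TNS3 (-0.41 ± 0.06), ACTN1 (-0.30 ± 0.05), FLNA (-0.29 ± 0.04), ACTN4 (-0.27 ± 0.04), PXN (-0.26 ± 0.05) and VCL (-0.22 ± 0.05) were lower in Kashlid than in SUN2KO, each with an adjusted p of at most 0.00153 and in each fit that left out a library. ITGB1BP1, TLN2, ZYX and TNS1 passed as well (adjusted p = 0.00732, 0.0188, 0.035 and 0.0358). These last 4 calls were lost in 1 or more such fits, ITGB1BP1 without Kashlid replicate 1 (0.067) or SUN2KO replicate 1 (0.0991) and TLN2 without Kashlid replicate 2 (0.0845), SUN2KO replicate 1 (0.151) or SUN2KO replicate 2 (0.0516). ZYX was lost without Kashlid replicate 1 (0.33), SUN2KO replicate 1 (0.0686) or SUN2KO replicate 2 (0.265), and TNS1 without Kashlid replicate 1 (0.215), SUN2KO replicate 1 (0.23) or SUN2KO replicate 2 (0.0814). TLN2 (0.0686), ZYX (0.0734) and TNS1 (0.0946) were also lost in DESeq2, and ZYX (0.082) and TNS1 (0.081) with library size alone. TNS1 (0.0709) was lost relative to its neighbours, and TNS1 (0.0695) and ZYX (0.0657) in a fit of Kashlid and SUN2KO alone.

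LBD against SUN2KO gave 5 subunits higher and 1 lower, and 0 adaptors higher and 6 lower, where 13.5% of all genes were called (6.69% higher and 6.79% lower). With library size alone, 1128 genes were higher and 718 lower, against 938 and 952 with TMM. The 0 adaptors higher were also 0 at an unadjusted p under 0.05 and 0 by DESeq2, while relative to neighbours 1 adaptor was higher and 7 lower. ITGA2 (1.53 ± 0.08), ITGB8 (1.37 ± 0.19), ITGB4 (0.84 ± 0.08) and ITGA5 (0.73 ± 0.06) were higher in LBD (adjusted p = 1.1e-11, 2.61e-05, 2.57e-07 and 4.82e-08). ITGA3 was higher by 0.21 ± 0.05 (adjusted p = 0.00282, and 0.0605 without LBD replicate 2), and ITGA1 was lower (-0.39 ± 0.06, adjusted p = 6.32e-05). For ITGB1 the difference was -0.03 with a 95% interval of -0.13 to 0.07.

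Of the adaptors, PARVA (-0.31 ± 0.06), TNS1 (-0.30 ± 0.06), TNS3 (-0.24 ± 0.06), FLNA (-0.16 ± 0.04), VCL (-0.15 ± 0.05) and ACTN4 (-0.13 ± 0.04) were lower in LBD than in SUN2KO (adjusted p = 0.00203, 0.0017, 0.00569, 0.00607, 0.0314 and 0.0416). TNS1 passed in every fit that left out a library. PARVA was lost without LBD replicate 2 (0.0603), TNS3 without LBD replicate 2 (0.101) or SUN2KO replicate 2 (0.0561), and FLNA without LBD replicate 1 (0.061) or SUN2KO replicate 1 (0.103). VCL and ACTN4 were lost without any 1 of the LBD or SUN2KO libraries, at 0.0825 to 0.237 for VCL and 0.105 to 0.226 for ACTN4. With library size alone VCL (0.0691) and ACTN4 (0.0946) did not pass, and ACTN4 did not pass in DESeq2 (0.0619). Relative to its neighbours VCL did not pass (0.201). Library size alone gave 6 members higher and 5 lower, against 5 higher and 7 lower with TMM. Leaving out LBD replicate 2 left 2 adaptors called, and leaving out SUN2KO replicate 1 or 2 left 3.

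LBD against Kashlid gave 7 subunits and 3 adaptors higher in LBD and 0 lower, where 2.91% of all genes were called (1.63% higher and 1.28% lower). Lower in LBD at an unadjusted p under 0.05 were 0 subunits and 1 adaptor, and DESeq2 called 0 of either lower. The members called higher in LBD were ITGA1 (0.35 ± 0.06), ITGA2 (0.33 ± 0.08), ITGB4 (0.33 ± 0.08), ITGB5 (0.30 ± 0.05), ITGA3 (0.26 ± 0.05), ITGA5 (0.26 ± 0.06) and ITGB1 (0.18 ± 0.05), with ACTN1 (0.34 ± 0.05), PXN (0.24 ± 0.05) and FLNA (0.14 ± 0.04). Adjusted p ran from 0.00077 for ACTN1 to 0.0487 for FLNA. ACTN1 and ITGA1 passed in every fit that left out a library. Without LBD replicate 2 the calls of ITGA2 (0.17, adjusted p = 0.323), ITGA5 (0.13, 0.384), ITGB4 (0.13, 0.414), ITGA3 (0.23, 0.0582), ITGB1 (0.19, 0.129), PXN (0.25, 0.0532) and FLNA (0.12, 0.232) were lost. Without LBD replicate 1 those of ITGB1 (0.213), ITGB5 (0.0602), PXN (0.101) and FLNA (0.134) were lost. Without Kashlid replicate 1 those of ITGA5 (0.08), ITGB4 (0.0679) and FLNA (0.188) were lost, and without Kashlid replicate 2 that of ITGB1 (0.13). Leaving out LBD replicate 2 left 3 of the 10 members called, and leaving out LBD replicate 1 left 6. DESeq2 did not call ITGA2 (0.114), ITGA5 (0.136) or ITGB4 (0.164), and a fit of LBD and Kashlid alone called 4 members. Relative to their neighbours ITGB1 (0.17, adjusted p = 0.0549) and FLNA (0.11, adjusted p = 0.109) did not pass. LBD replicate 2 had the highest ITGA2, ITGA5 and ITGB4 of all 8 libraries.

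**Figure D5:**
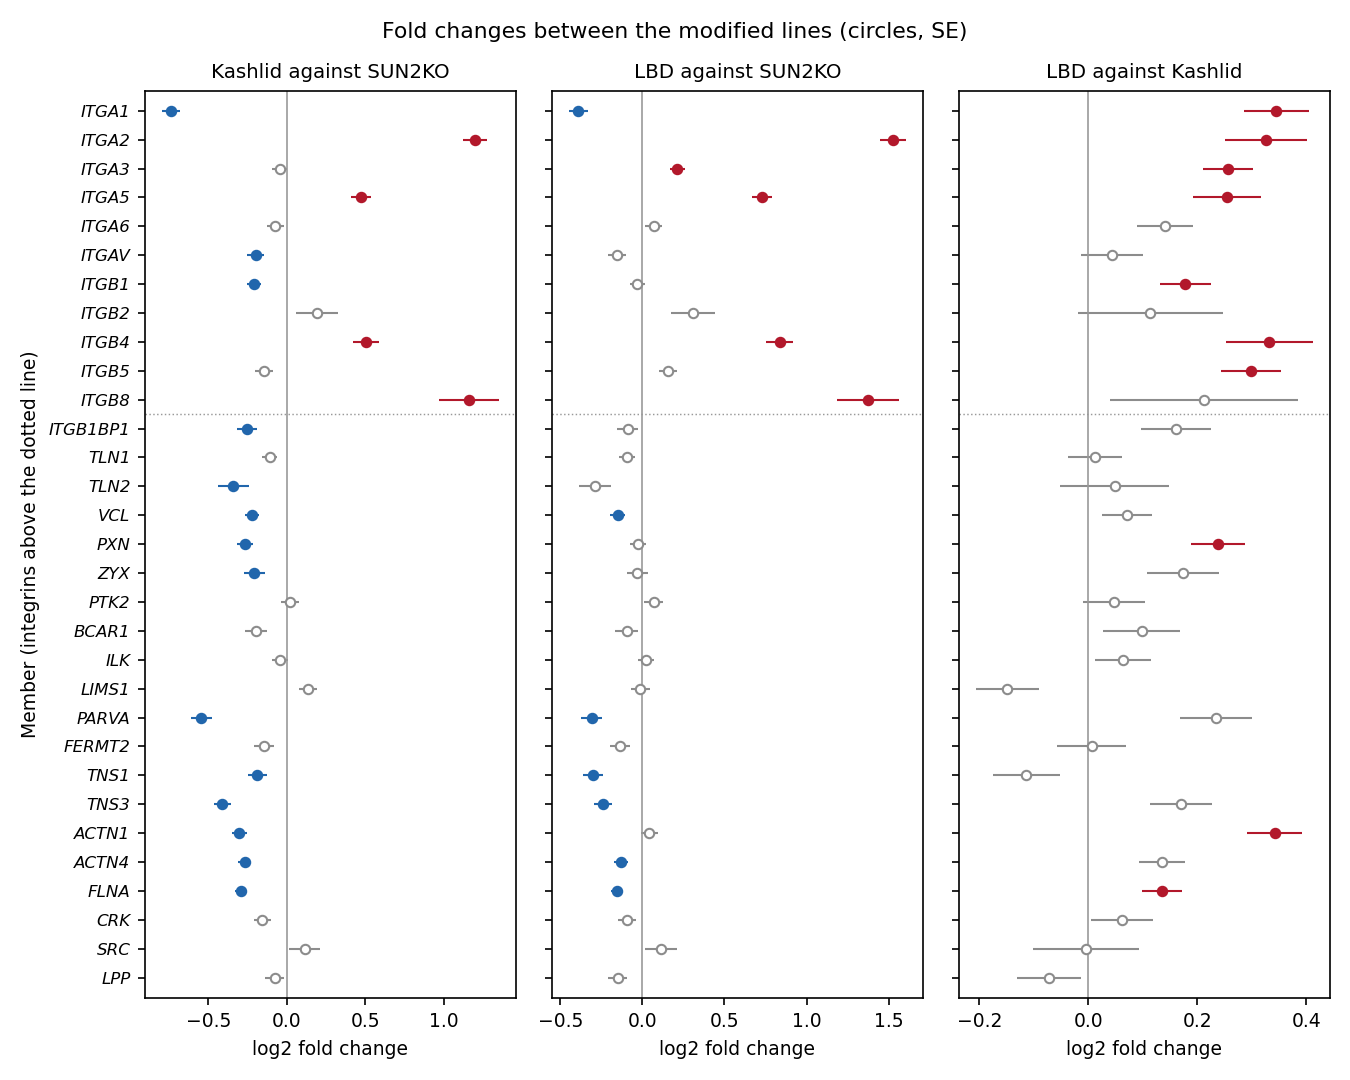
Log2 fold changes of the members between the modified lines, Kashlid against SUN2KO, LBD against SUN2KO and LBD against Kashlid, with bars of 1 SE and a separate scale for each panel. Filled points passed at adjusted p under 0.05 (red higher, blue lower), open points did not, and ITGA7, ITGA10 and ITGB3 are left out. ITGA2 lies at 1.20 and 1.53 against SUN2KO, and every filled point of the third panel is right of zero.

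The ligands of these receptors also changed. Of 34 tested matrix ligands, 4 were higher and 14 lower in SUN2KO, 7 higher and 16 lower in Kashlid, and 8 higher and 12 lower in LBD, with median log2 fold changes of -0.34, -0.25 and -0.16. That is 52.9% of the list called in SUN2KO, 67.6% in Kashlid and 58.8% in LBD, beside 36.7%, 44.5% and 40% of all genes. Fibronectin, FN1, the ligand of alpha5beta1, had 295.0 and 291.8 CPM in SUN2KO, 699.5 and 741.4 in Kashlid, 775.1 and 859.0 in LBD, against 795.4 and 849.0 CPM in WT. SUN2KO had far less FN1 than any other group, at -1.49 ± 0.05 against WT, and the values were -0.19 ± 0.05 in Kashlid and -0.01 ± 0.05 in LBD (95% interval -0.11 to 0.09), of which that of LBD did not pass. Thrombospondin-1, THBS1, was lower in all 3 lines (-1.14 ± 0.10, -2.07 ± 0.11 and -1.72 ± 0.11 for SUN2KO, Kashlid and LBD), and so was TGFBI, a matrix protein that binds integrins (-1.12 ± 0.07, -1.18 ± 0.07 and -0.95 ± 0.07). LAMA1, a laminin chain, was lower in Kashlid (-1.91 ± 0.17) and LBD (-1.46 ± 0.16) and at -0.17 ± 0.15 in SUN2KO. COL5A1, a collagen chain, was lower in SUN2KO (-1.29 ± 0.06) and Kashlid (-0.97 ± 0.06).

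Other genes of the pathway were taken from lists of the same kind. Of 26 genes of integrin activation and traffic, 5 were higher and 9 lower in SUN2KO, 4 higher and 12 lower in Kashlid, and 3 higher and 11 lower in LBD, which is 53.8%, 61.5% and 53.8% called beside the same shares of all genes. SLC3A2, whose product CD98 associates with beta tails, had 507.1 and 481.4 CPM in SUN2KO, 479.2 and 360.4 in Kashlid, 418.8 and 427.8 in LBD, against 727.3 and 725.2 CPM in WT (-0.56 ± 0.08, -0.79 ± 0.08 and -0.78 ± 0.08). CD82 was lower in each line too (-0.84 ± 0.10 for SUN2KO, -0.87 ± 0.10 for Kashlid and -0.82 ± 0.10 for LBD). Of 35 other kinases and scaffolds, 12 were higher and 10 lower in SUN2KO, 11 and 14 in Kashlid, 9 and 8 in LBD, or 62.9%, 71.4% and 48.6% called. DOCK1, the exchange factor downstream of p130Cas and CRK, was higher in each line (0.75 ± 0.06 for SUN2KO, 0.75 ± 0.06 for Kashlid and 0.70 ± 0.06 for LBD). The SRC-family kinase FYN was higher as well (1.78 ± 0.25, 2.17 ± 0.25 and 1.93 ± 0.25), with 95 and 121 counts in SUN2KO, 149 and 113 in Kashlid, 104 and 115 in LBD, against 35 and 23 in WT. TGFB1I1, of the same list, was lower in each line (-0.99 ± 0.15 for SUN2KO, -0.72 ± 0.15 for Kashlid and -0.89 ± 0.15 for LBD). Of 42 other actin-linked proteins, 2 were higher and 13 lower in SUN2KO, 3 and 19 in Kashlid, 7 and 17 in LBD, or 35.7%, 52.4% and 57.1% called. The share in SUN2KO was thus near that of all genes. The actin-binding NEXN had the lowest value of that list in each (-1.63 ± 0.13, -2.77 ± 0.15 and -2.56 ± 0.15). Of 4 other integrin subunits tested, 0 passed in any comparison by edgeR, and 2 values, ITGAD in SUN2KO against WT and ITGAE in Kashlid against SUN2KO, were under 0.05 before adjustment.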

How the data were processed

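RNA of MDA-MB-231 cells was sequenced in 8 libraries, with 10000000 cells per sample, per the labels. Per the submitters' processing notes, reads were trimmed with Trim Galore, aligned to hg19 with STAR 2.7.1a, handled with bedtools 2.24.0 and counted with HTSeq. The counts are the raw reads per gene deposited by the authors, in 25369 genes, with 0 entries naming no gene. No source used here gives the strand setting or the annotation. The authors also deposited 3 tables without column names, from DESeq2 per the submitters' processing notes. The log2 fold changes and p-values in the authors' deposited tables were recognised by recomputation, and log2 values correlated at r = 0.999 across genes. Unnamed columns of values per library or their mean, 5 in each of these tables, were not used.

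Analysis used edgeR 4.0.16 under R 4.3.3, with TMM scaling, filterByExpr, and the quasi-likelihood test over all 8 libraries with 1 term per group. Tests were two-sided, with Benjamini-Hochberg adjustment over all 14016 genes of a comparison and a threshold of 0.05. SE and 95% intervals come from the fit, and intervals cover the spread between libraries only. Exon lengths per kb are union lengths of GENCODE transcripts on GRCh38, used for length alone. Neighbour medians are over other tested genes within 2.5 Mb, with at least 15 genes, or at least 5 in a version added after seeing the data. For ITGAV, ITGB1, ITGB8 and TNS3, with 7, 12, 10 and 13 neighbours, values relative to neighbours come from the added version. DESeq2 1.42.0 was an alternative. The steps were tested on simulated data.

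The members and lists were chosen with earlier results of these data known. Values in every library are given for members that passed against WT at a mean of at least 5 CPM, or between modified lines. Those passing against WT were limited to the 12 of smallest adjusted p per subgroup. Passing genes named from the ligand and pathway lists were, in at least 1 comparison, among the 4 of largest absolute log2 fold change. Not every such gene was named. Replicate libraries of a group differed by more than sampling noise (chi-square per degree of freedom 2.51 to 5.60), so no pair was counted as 1 sample. This does not show that they came from separate cultures.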

Additional observations from a re-analysis of the deposited data

How the results depend on the processing

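Of 97 member calls in the 6 comparisons, 58 held under every alternative run, and 39 were lost under at least 1, of which 1 reversed. The reversed value was ITGAV in LBD against WT, at 0.0813 relative to at least 5 neighbours, where the cause is the subtraction of the neighbours' own median. Against WT, the same subtraction also passed members that the main test did not call. In SUN2KO these were ZYX (0.39), TNS3 (0.44), PARVA (-0.18) and ACTN4 (-0.14). In Kashlid they were ITGB2 (0.37), SRC (0.40), ITGA6 (-0.14) and LIMS1 (-0.22), and in LBD ITGB2 (0.47) and SRC (0.37). The counts of members in the comparisons with WT stayed within 1.5 times under every alternative. In LBD against SUN2KO, DESeq2 called 1247 genes, against 1890 in edgeR. In LBD against Kashlid, 408 genes were called, 775 with no filter and 129 in a fit of the 2 groups alone. That fit left 4 of 10 members, 3 subunits and 1 adaptor, and DESeq2 left 4 subunits. The cause of these differences was not tested. Leaving out 1 library gave 1186 to 2375 genes and 7 to 13 adaptors in Kashlid against SUN2KO, and 3 to 5 adaptors in SUN2KO against WT. It gave 884 to 1355 genes, 7 to 10 members and 2 to 4 adaptors in LBD against SUN2KO, and 129 to 839 genes, 3 to 12 members, 2 to 6 subunits and 1 to 6 adaptors in LBD against Kashlid. No label ties libraries of the same number together, and 2 numbers cannot show whether they pair. Correlations of the replicate differences were 0.195 to 0.221 between modified lines, and 0.05, -0.02 and 0.11 for SUN2KO, Kashlid and LBD with WT. With the replicate number as a block, 14, 23 and 21 members were called in SUN2KO, Kashlid and LBD against WT, where 13, 23 and 21 were called without it. It called 21 in Kashlid and 14 in LBD against SUN2KO, and 11 in LBD against Kashlid, where 18, 12 and 10 were called without it, and every member call held. Depth of 16570099 to 18814795 counts limits ITGB3, ITGA7 and ITGA10 most among the tested members, at 4 to 22 counts each.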
